A study of Mus musculus with 2 samples.

Results

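The Ifi27 family of the mouse, Ifi27, Ifi27l2a and Ifi27l2b, was examined in primary fibro-adipogenic progenitors (FAPs), stromal cells of skeletal muscle that can become adipocytes. The 3 genes were chosen by symbol from 26082 gene rows, after the contrast examined here had shown Ifi27 going against the other interferon-response genes, so the values below are a description of a known pattern. Each symbol had 1 row in the files, so that no rows had to be summed within a gene, and all 3 genes were detected in both libraries. The cells were wild type by their labels and, by the methods, came from young adult C57BL/6 mice. One library was made after transfection with plasmids that overexpress TGFBR3 and the other after transfection with the vector. The labels place both under adipogenic differentiation, for which the medium contained insulin at 10 μg/ml, dexamethasone at 0.25 μM, IBMX at 0.5 mM and FBS at 20%. The labels do not say whether cells of several animals were pooled. With 1 library in each group, no difference could be set against a spread between replicates, and p-values are not given.

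The family encodes small hydrophobic proteins, also called ISG12 proteins, whose genes are induced mainly by type I interferons. The human protein IFI27 has been found at mitochondria and at the nuclear envelope, and has been linked to apoptosis. Mouse ISG12 has been reported to bind nuclear receptors of the NR4A group and to promote their export from the nucleus through XPO1. The product of Ifi27l2a, known as ISG12b1, has been reported to inhibit adipogenic differentiation of cultured preadipocytes. RefSeq lists Ifi27 and Isg12 among the synonyms of Ifi27l2a, and Ifi27l1 and ISG12a among those of Ifi27. Earlier reports that use the names ISG12 or Ifi27 for a mouse gene can therefore concern Ifi27l2a.

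The 3 genes lie side by side on chromosome 12 of mm10, within 23013 bases. Ifi27 (ENSMUSG00000064215) extends from 103434211 to 103440239 on the plus strand, and GENCODE release M21 lists 9 transcripts for it, 6 of them protein coding. Ifi27l2a (ENSMUSG00000079017) extends from 103442167 to 103443680 on the minus strand, 1927 bases beyond Ifi27. Ifi27l2b (ENSMUSG00000021208) extends from 103450898 to 103457223 on the minus strand, after another 7217 bases. Ifi27l2a and Ifi27l2b have 1 transcript each. RefSeq, on GRCm38.p6, gives Ifi27l2a a longer span, from 103433873 to 103443680, which covers Ifi27 on the opposite strand. The library protocol marks the strand, and whether the counting used it is not given in the sources used here.

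All members share a pair of coding exons of the same lengths, 30 and 162 bases, which are shown because they carry the common part of the family and decide whether reads can be told apart. Ifi27l2b holds this pair at 2 places of its transcript. The exons of 162 bases are printed 5′ to 3′ from the GENCODE transcripts, with the bases that are the same in all 4 in capitals.
Ifi27 exon 6, chr12:103439401-103439562, plus strand: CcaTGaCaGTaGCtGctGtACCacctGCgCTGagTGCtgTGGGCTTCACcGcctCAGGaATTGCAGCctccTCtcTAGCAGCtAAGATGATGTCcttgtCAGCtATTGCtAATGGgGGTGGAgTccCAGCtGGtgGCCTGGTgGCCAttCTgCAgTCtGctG
Ifi27l2a exon 3, chr12:103442832-103442993, minus strand: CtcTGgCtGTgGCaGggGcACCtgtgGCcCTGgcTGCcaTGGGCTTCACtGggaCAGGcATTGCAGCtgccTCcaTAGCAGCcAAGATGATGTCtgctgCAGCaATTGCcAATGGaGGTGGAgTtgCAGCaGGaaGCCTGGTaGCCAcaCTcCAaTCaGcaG
Ifi27l2b exon 3, chr12:103456358-103456519, minus strand: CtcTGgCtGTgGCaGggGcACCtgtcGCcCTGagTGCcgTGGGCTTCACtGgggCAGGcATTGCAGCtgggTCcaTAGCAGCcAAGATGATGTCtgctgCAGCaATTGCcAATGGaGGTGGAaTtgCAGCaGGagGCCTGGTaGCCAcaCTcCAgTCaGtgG
Ifi27l2b exon 6, chr12:103451806-103451967, minus strand: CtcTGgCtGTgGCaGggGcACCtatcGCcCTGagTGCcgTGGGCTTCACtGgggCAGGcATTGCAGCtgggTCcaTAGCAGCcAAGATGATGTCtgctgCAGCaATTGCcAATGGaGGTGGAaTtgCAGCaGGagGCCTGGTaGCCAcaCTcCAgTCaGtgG

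The exons of 30 bases lie just before them in the longest Ifi27 transcript and in the transcripts of Ifi27l2a and Ifi27l2b, and are printed in the same way.
Ifi27 exon 5, chr12:103437676-103437705, plus strand: ccAaggctgTtGtggCTGtgcTtGGgGGAG
Ifi27l2a exon 2, chr12:103443482-103443511, minus strand: gaAcactgtTtGgctCTGccaTaGGaGGAG
Ifi27l2b exon 2, chr12:103457015-103457044, minus strand: gaAaatttgTgGgcgCTGctaTaGGaGGAG
Ifi27l2b exon 5, chr12:103452471-103452500, minus strand: gaAaatttgTgGgcgCTGctaTaGGaGGAG

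In the 162-base exon, 110 bases were the same in all 4 copies. Ifi27 matched Ifi27l2a at 114 bases (70.4%) and either copy of Ifi27l2b at 115 (70.99%). Ifi27l2a matched the first copy of Ifi27l2b at 150 bases (92.6%) and the second at 149 (92.0%). The copies within Ifi27l2b matched each other at 161 of 162 bases, and their 30-base exons were identical. The longest stretch that Ifi27 shares with another member is 11 bases, and no word of 31 bases from its transcripts occurs in a transcript of another gene. Ifi27l2a and Ifi27l2b share a stretch of 51 bases, and 26 words of 31 bases, which are 6.0% of those of Ifi27l2a and 2.80% of those of Ifi27l2b. The longest stretch repeated within the Ifi27l2b transcript is 140 bases. All of these stretches are shorter than the reads of 150 nt.

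**Figure D1:**
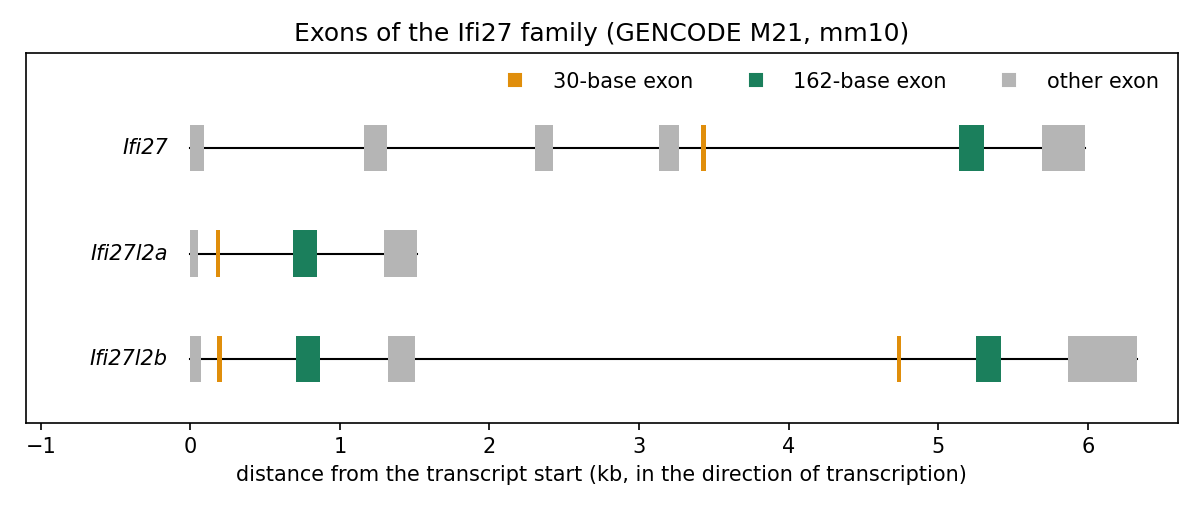
Exons of the longest Ifi27 transcript and of the single transcripts of Ifi27l2a and Ifi27l2b, drawn to scale against the distance from the transcript start in kb. Boxes are exons and lines are introns. The 30-base and 162-base exons occur as a pair once in Ifi27 and Ifi27l2a and at 2 places in Ifi27l2b.

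Total counts were 62321027 under the overexpression label and 83779203 under the control label. Tgfbr3 itself stood at FPKM 36.9 and 35.1, a log2 ratio of 0.07. The labelled overexpression was thus not seen in the gene's RNA in these libraries, and every direction below is that of the labels. The paper also describes an RT-PCR of TGFBR3 in transfected FAPs, which was not used here. FPKM is the count divided by the exon length and by a library total, and the log2 ratio is that of (FPKM + 1), overexpression label over control label. Intervals are exact 95% Clopper-Pearson intervals of the counts and cover counting error only. The median log2 ratio of the 10626 genes at FPKM 1 or more in both libraries was 0.13, and centred values have this shift removed. A ribosomal RNA, CT010467, took 0.250% of the counts in the library labelled overexpression and 1.15% in the other, and its part in the results was not tested. The FAP markers Pdgfra (FPKM 30.5 and 32.6) and Ly6a (1013 and 706) were high in both libraries, but Lum (0.27 and 0.03) was nearly absent. Of the 8 markers, 5 had a log2 ratio below 0. Among these, 2 markers, Dpt (−1.12) and Col3a1 (−1.05), were at least 2-fold lower on the log2 scale under the overexpression label. Of all genes at FPKM 1 or more in either library, 1.06% were. The other markers below 0 were Col1a1 (−0.89), Cd34 (−0.30) and Pdgfra (−0.09). The 11 macrophage and leukocyte markers summed to FPKM 16.0 and 19.0, of which Lyz2 gave 12.2 and 16.4, and Adgre1, Tyrobp and Fcer1g had no counts. The 6 endothelial markers summed to 2.40 and 2.03. Of 6 muscle cell markers, 3 were in the tables, and they summed to 1.16 and 0.81. The part of these marker levels in the results was not tested.

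Ifi27 was lower in the library labelled TGFBR3 overexpression, whereas Ifi27l2a and Ifi27l2b were slightly higher there. Its FPKM was 52.0 there and 171 under the control label, from 5183 and 23230 counts. By the plain ratio of FPKM, it was 3.29-fold lower. On the log2 scale the ratio was −1.70 (95% CI −1.74 to −1.66), or −1.83 after centring. In bulk RNA, fewer cells that express a gene and less RNA in each cell cannot be told apart.

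Ifi27l2a had an FPKM of 16.7 against 11.8, from 525 and 505 counts. The plain ratio was 1.42, and the log2 ratio of (FPKM + 1) was 0.47 (95% CI 0.30 to 0.64). Nearly equal counts gave a higher FPKM because the library under the overexpression label was the smaller one. Ifi27l2b, the least abundant member, had an FPKM of 2.26 against 1.47, from 168 and 149 counts, a plain ratio of 1.54 and a log2 ratio of 0.40 (95% CI 0.19 to 0.61). The counting intervals of Ifi27l2a and Ifi27l2b overlapped each other, and both lay above 0. Centred, the values were 0.34 and 0.27.

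**Figure D2:**
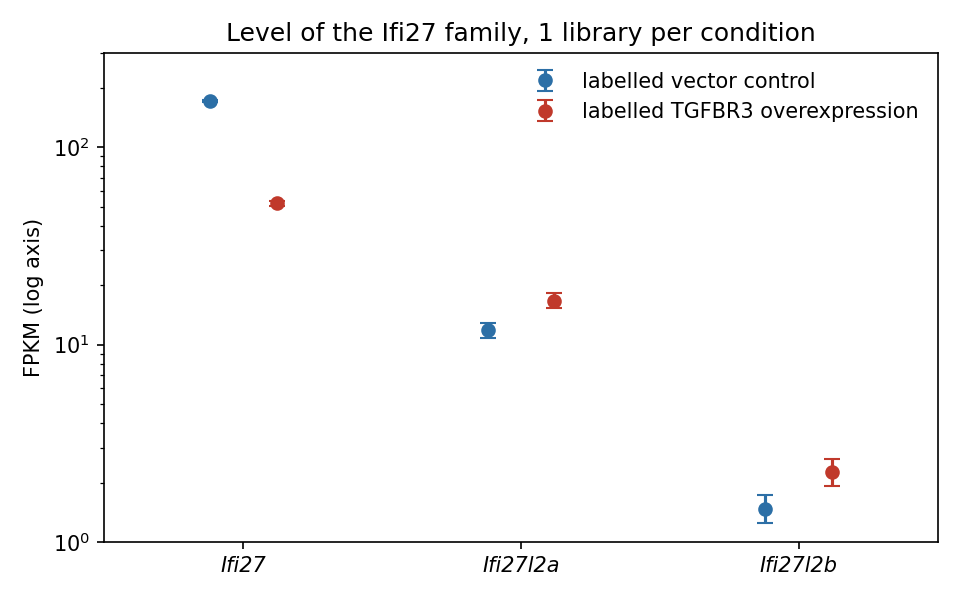
FPKM of the 3 members on a log axis in the library labelled vector control and the library labelled TGFBR3 overexpression. Points are single libraries and bars are exact 95% Poisson intervals of the counts. Ifi27 stood at 171 in the control label and at 52.0 in the other, while both other members were slightly higher in the library labelled overexpression.

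The order of the members by FPKM was the same in both libraries, with Ifi27 highest and Ifi27l2b lowest, and the intervals of the levels did not overlap between members. The distance between them was not the same. The FPKM of Ifi27 was 14.5 times that of Ifi27l2a in the library labelled vector control and 3.12 times in the other. Against Ifi27l2b, the corresponding ratios were 117 and 23.0. Ifi27l2a stood at 8.02 and 7.39 times Ifi27l2b, so these neighbors kept nearly the same proportion. Of the family's counts, Ifi27 took 97.3% (exact 95% CI 97.0 to 97.5) under the control label and 88.2% (95% CI 87.4 to 89.0) under the overexpression label. The share of Ifi27l2a was 2.11% and 8.93%, and that of Ifi27l2b was 0.624% and 2.86%. Summed over the 3 genes, the FPKM was 70.99 against 184.62, and the log2 ratio was −1.37 (95% CI −1.41 to −1.33).

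Over the 23121 genes with a nonzero value in either library, 124 genes (0.536%) were at least 2-fold lower, which is a log2 ratio of −1 or less, and 369 genes (1.6%) were at least 2-fold higher. Of the 11708 genes at FPKM 1 or more in either library, these were 1.06% and 3.15%. Among the family, 1 of 3 genes passed 2-fold downward and 0 upward. The split depends on the scaling, since 74.8% of the 2-fold changes were higher as measured and 58.5% after centring. After removal of the GC trend the share was 61.2%, and after removal of the exon length trend 64.9%. It was larger with FPKM rescaled to a common sum (81.2%) and as CPM of the counts (76.4%).

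On the log2 ratio of (FPKM + 1), Ifi27 was among the most lowered transcripts. Genes of low FPKM under the control label cannot reach so low a ratio on this scale. Without the added 1, 852 genes were at least 2-fold lower, and the place of Ifi27 among them was not taken. Only 12 of the 23121 genes, and 12 of the 11708 at FPKM 1 or more in either library, had a lower log2 ratio of (FPKM + 1). Of these, 5 code for a protein. They are named here after their values were seen. Gas1, a growth arrest gene of the cell surface, stood at −2.01, and Guca1a, a guanylate cyclase activator of photoreceptors with 0 counts against 205, at −1.82, a value that depends on the added 1. Cxcl14, a chemokine, and Fkbp1b, a calcium channel regulator, both stood at −1.79, and Comp, a protein of the cartilage matrix, at −1.75. All 5 were less abundant than Ifi27 in the library labelled vector control, with Cxcl14 highest at FPKM 74.2. Of the 438 protein coding genes at FPKM 100 or more in that library, 7 were at least 2-fold lower, and Ifi27 had the lowest ratio. After it came Fn1, which encodes fibronectin, at −1.28.

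**Figure D3:**
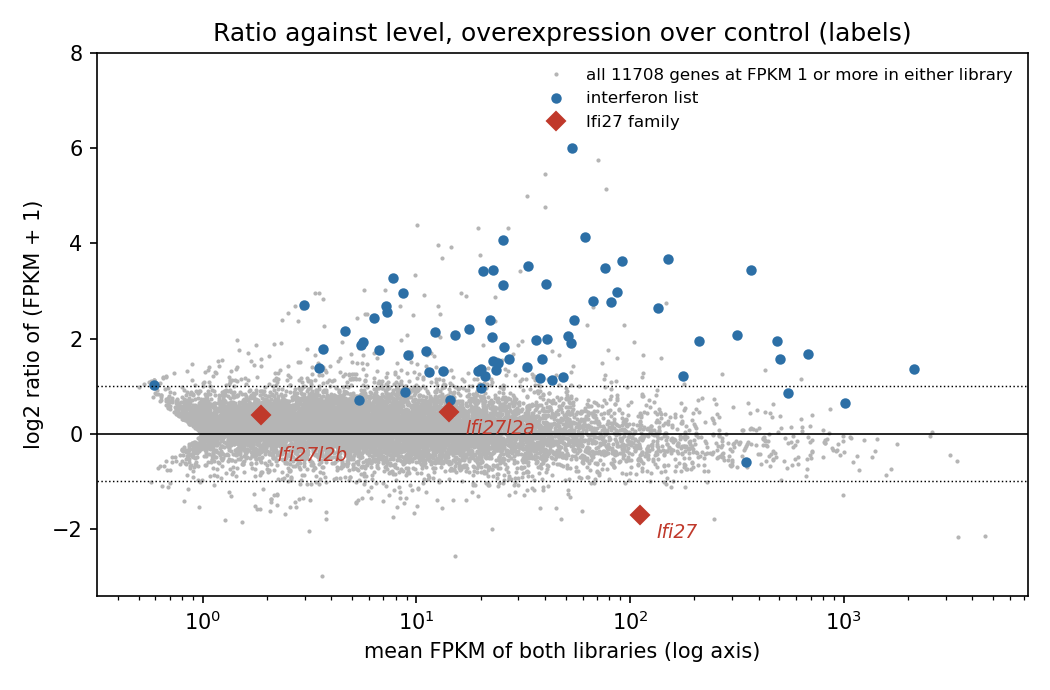
Log2 ratio of (FPKM + 1), overexpression label over control label, against the mean FPKM of both libraries on a log axis, for 11708 genes. Dotted lines mark 2-fold. Ifi27 lies at −1.70 and below the other abundant protein coding genes, while Ifi27l2a (0.47) and Ifi27l2b (0.40) lie above 0.

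By its level in the library labelled vector control, Ifi27 exceeded 97.7% of the genes at FPKM 1 or more in either library, and 91.9% in the library labelled overexpression. Ifi27l2a exceeded 69.5% and 75.3% of them, and Ifi27l2b 15.5% and 20.5%. The log2 ratio of Ifi27l2a was higher than that of 79.3% of these genes and that of Ifi27l2b than that of 74.2%. Over all 23121 genes, many of which are near 0 in both libraries, these shares were 88.5% and 85.3%.

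Interferons act through receptors, JAK kinases and STAT factors on a wide set of target genes, of which 71 were listed to place the family. In this list 63 genes, or 88.7%, passed 2-fold upward under the overexpression label, and no gene passed it downward. Of all genes at FPKM 1 or more in either library, 3.15% passed it upward and 1.06% downward. The list's median log2 ratio was 1.92, beside 0.15 over the 11708 genes at FPKM 1 or more in either library. All 71 listed genes had a higher log2 ratio than Ifi27. For Ifi27l2a and Ifi27l2b, 69 of the 71 had a higher ratio. The largest ratios of the list belonged to Ccl5 (6.01) and Cxcl10 (4.08), chemokines that attract leukocytes, and to Phf11d (4.14). The smallest belonged to Ifitm2 (−0.60), Ifitm1 (−0.13) and Ifitm3 (0.65), membrane proteins that restrict the entry of viruses.

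Ifitm2 came nearest to Ifi27. Its FPKM was 278 against 422, from 12349 and 25535 counts, and the log2 ratio of −0.60 (95% CI −0.63 to −0.57) was 1.10 above that of Ifi27. Ifitm1 was scarce, with 37 and 64 counts, and its interval (−0.33 to 0.09) includes 0, so that this depth could not show a difference. Ifitm3 was more abundant under the overexpression label, at 1243 against 790. The Ifitm genes are close paralogs, so their reads could have been split in the counting, which was not tested.

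By role, the listed genes were grouped after their values were seen. Among the transcription factors, Irf7 was at 3.67 and Irf1 at 0.71 on the log2 scale. Of the 4 genes of ISG15 conjugation, 3 were at least 2-fold higher, with Uba7, the activating enzyme, at 0.70. All 4 IFIT genes (2.98 to 3.63), all 5 OAS genes (1.74 to 3.45) and all 7 GTPases (2.65 to 3.49) were at least 2-fold higher, as were the 7 genes of antigen presentation (1.31 to 1.96) and 7 of the 8 sensors of nucleic acids (0.89 to 2.55). The small membrane proteins of the list, the Ifitm genes with Bst2 (1.67) and Ly6e (1.95), had a median of 0.65.

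**Figure D4:**
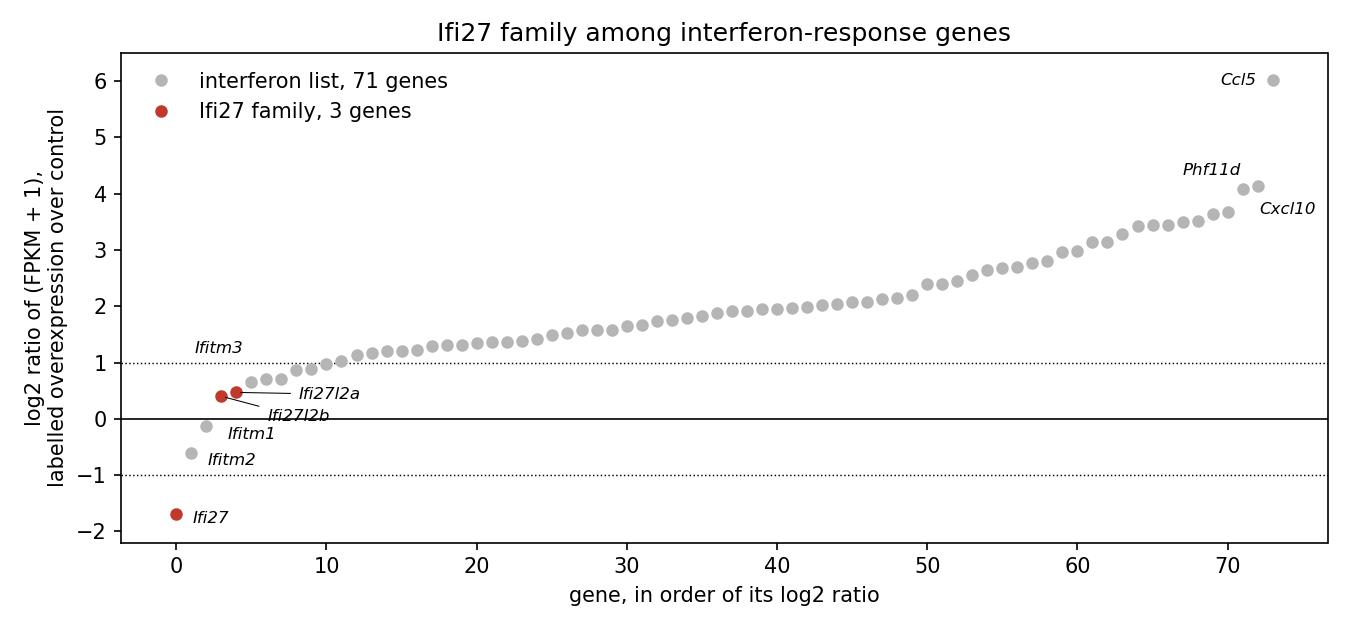
Log2 ratio of (FPKM + 1), overexpression label over control label, for 71 interferon-response genes and the 3 members of the Ifi27 family in order of their ratio. Dotted lines mark 2-fold. Ifi27 (−1.70) lies below the whole list, and Ifi27l2b (0.40) and Ifi27l2a (0.47) lie above Ifitm2 and Ifitm1 only.

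The family also changed its place among these genes by level. Under the control label, 7 of the 71 genes had a higher FPKM than Ifi27, namely B2m, Bst2, H2-D1, H2-K1, Ifitm2, Ifitm3 and Lgals3bp. Under the overexpression label 31 did. For Ifi27l2a, 32 of the 71 had a higher FPKM under the control label and 54 under the overexpression label, and for Ifi27l2b 60 and 69. For Ifi27l2a and Ifi27l2b, whose own FPKM was higher there, the lower place is that of the other genes having higher values.

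Outside the family, 16 genes of the tables share the symbol prefix Ifi followed by a number, a group defined by name after the values were seen. Ifi35, Ifi44, Ifi203 and Ifi204 among them also belong to the 71 listed genes. Their median log2 ratio was 2.33, 13 passed 2-fold upward and 0 passed it downward, beside 1.6% and 0.536% of all 23121 genes. They range from Ifi30, a lysosomal thiol reductase (FPKM 39.8 and 46.8, log2 ratio −0.23), to Ifi209, a member of the PYHIN family, at 4.32. Ifi44, whose name resembles that of Ifi27 without a shared family, stood at 38.2 against 2.64, a log2 ratio of 3.43.

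The interferons and their receptors were listed as the upstream part of the pathway. Of the ligands, Ifnb1 had 9 and 3 counts (FPKM 0.17 and 0.04), which gave a log2 ratio of 0.17 (95% CI 0.01 to 0.27). At this level the added 1 makes both the ratio and its interval small. Ifna4 had no counts in either library. Ifng, Ifne, Ifnl2 and Ifnl3 were not analysed here. The type I receptor genes Ifnar1 (FPKM 11.96 and 11.72, log2 ratio 0.03) and Ifnar2 (26.3 and 22.5, 0.22) stood close to the median gene. So did the type II receptor gene Ifngr1 (24.4 and 23.1, 0.08), whereas Ifngr2 (19.4 and 22.2, −0.19) stood at −0.31 after centring. Ifnlr1 (54 and 83 counts) and Il10rb, which form the type III receptor, had log2 ratios of −0.02 and −0.21. Of the kinases, Jak1 stood at 0.42, Jak2 at 0.78 and Tyk2 at −0.06, and Jak2 was at 0.42 with the trend over GC content removed. None of the receptor and kinase genes at FPKM 1 or more was 2-fold changed, with or without the added 1. With the added 1, 3.15% of all genes at that level in either library were 2-fold higher and 1.06% lower. Ifnb1 and Ifnlr1 were too low to pass 2-fold on the scale of (FPKM + 1).

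Around the family, 18 other genes are annotated within 250 kb on either side, 8 of them are in the tables, and 2 reached FPKM 1 in either library. Ddx24, an RNA helicase gene on the minus strand upstream of Ifi27, had an FPKM of 31.7 against 16.9 and a log2 ratio of 0.87. Otub2, a deubiquitinase gene, had 2.33 against 2.37 and a log2 ratio of −0.02. Neither neighbor was 2-fold changed, and Ddx24 differed in the direction opposite to Ifi27. Ddx24 has a GC content of 40.3%, and low GC content went with higher ratios in these libraries. The part of GC content in the ratio of Ddx24 was not tested. Below FPKM 1, some neighbors passed 2-fold without the added 1. These were Gm47260 (1.82, 172 and 66 counts), Ppp4r4 (−1.35, 25 and 91 counts) and 9330161L09Rik (−1.14, 5 and 13 counts), named after their values were seen. Among all genes, 2546 passed 2-fold upward and 852 downward on that scale.

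**Figure D5:**
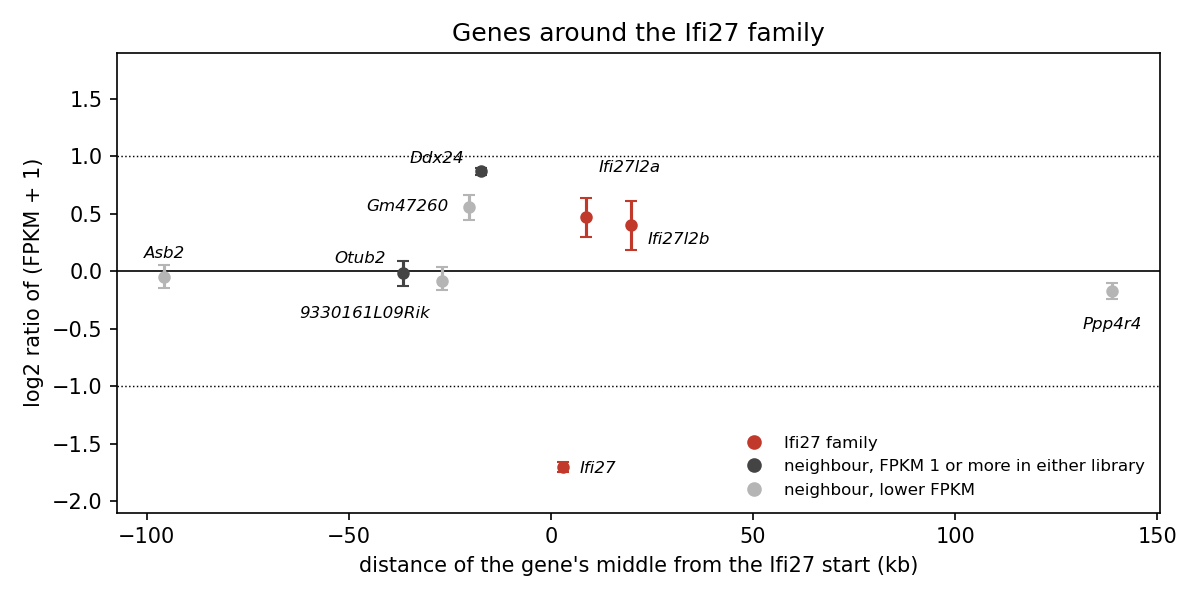
Log2 ratio of (FPKM + 1), overexpression label over control label, for the genes within 250 kb of the family that had over 3 counts in either library, against the distance of the gene's middle from the Ifi27 start in kb. Bars are exact 95% intervals of the counts. Ifi27 is at −1.70, and Ddx24, Ifi27l2a and Ifi27l2b are at 0.87, 0.47 and 0.40.

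The members were alike in base composition. The longest Ifi27 transcript had a GC content of 52.4%, beside 52.9% for Ifi27l2a and 53.9% for Ifi27l2b. Across 11207 genes the median log2 ratio went from 0.42 in the lowest of 20 bins of GC content to −0.26 in the highest, and the members' bins had medians of 0.04 and 0.00. With this trend removed, Ifi27 stood at −1.74, Ifi27l2a at 0.42 and Ifi27l2b at 0.40. By exon length the members were short, at 1467, 463 and 1093 bases, and with the trend over length removed the values were −1.66, 0.28 and 0.35. The FPKM values implied lengths of 1468, 463 and 1095 bases in the library labelled overexpression, so that the authors' gene models had about the lengths of the GENCODE models.

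Proteins and nuclear receptors that have been reported as partners of ISG12 proteins were followed as a list of 5 genes. On the log2 ratio of (FPKM + 1) none passed 2-fold, whereas Nr4a1, Nr4a3 and Xpo1 did by the plain FPKM ratio. Over all 23121 genes, 1.6% passed 2-fold upward and 0.536% downward on the log2 ratio of (FPKM + 1). By the plain ratio, taken only for genes with over 3 counts in both libraries, many more did, 2546 upward and 852 downward. Nr4a1, a nuclear receptor that is quickly induced by many stimuli, had an FPKM of 2.69 against 1.34, a log2 ratio of 0.66 and a log2 ratio without the added 1 of 1.01. Its relatives were scarce. Nr4a2 stood at 184 and 174 counts (0.19) and Nr4a3 at 32 and 18 counts (0.07, or 1.42 without the added 1). Xpo1, the export receptor, had an FPKM of 9.89 against 4.66. Its log2 ratio of (FPKM + 1) was 0.94 (95% CI 0.89 to 1.0), that without the added 1 was 1.09, and after removal of the GC trend it was 0.51. Skp2, a subunit of a ubiquitin ligase, was at −0.08, and its interval (−0.16 to 0.00) reaches 0. The median of the list was 0.19, beside the 0.15 of all genes at FPKM 1 or more in either library.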

How the data were processed

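RNA of 1 library per group was analysed, and the groups were taken from the sample titles. The authors deposited raw counts per gene and FPKM values rounded to 2 decimals. The methods name STAR and FeatureCounts on mm10, whereas the submitters' processing notes list cutadapt 1.9, HISAT2 2.2.1 and StringTie 2.1.6, and the annotation release is not given in the sources used here.

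The log2 ratio of (FPKM + 1) and the exact 95% intervals were computed with SciPy 1.17.1, and no test was run. The pseudocount of 1 understates the change of low genes. Counts were used for the intervals and for CPM. Plain ratios were not taken at 3 counts or fewer. Reads are not known to be independent molecules, so the intervals are a lower limit of the error.

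Exons and transcript sequences came from GENCODE M21, which holds 99.7% of the gene identifiers in the files. GC content is that of the longest transcript. Neighbors were taken within 250 kb. Trends were removed as medians in 20 bins. The calculations were tested on simulated counts.

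The members and gene lists were chosen with earlier results of these data known. Named genes were the members, Tgfbr3, the 3 largest and 3 smallest ratios of the interferon list and any listed gene 2-fold lower, the detected ligands, receptors and partners, the 2 largest and 2 smallest of the other lists, neighbors at FPKM 1 or more, and the 3 genes nearest to each member in ratio among genes within 2-fold of its control level. A gene that this rule would name is not reported here. Other exceptions are stated in the text.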

Additional observations from a re-analysis of the deposited data

How the results depend on the processing

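Each member's log2 ratio kept its sign under all 7 alternatives, and Ifi27 stayed at least 2-fold lower, between −1.83 and −1.63. Ifi27 was at −1.83 when centred, at −1.63 with FPKM rescaled to a common sum and at −1.74 after removal of the GC trend, each outside its counting interval. Ifi27l2a left its interval at 0.28, with the trend over exon length removed, and Ifi27l2b at 0.62, without a pseudocount. The family sum was at −1.49, −1.30, −1.59 and −1.41 when centred, rescaled, as CPM and after removal of the GC trend, respectively. CPM leaves out the exon length, which weights Ifi27 more. The number of genes at least 2-fold higher was 2061 with a pseudocount of 0.1, 2546 without one, 638 as CPM, 237 with the GC trend removed, 1685 at 1.5-fold and 77 at 4-fold. The number at least 2-fold lower was 798 and 852 with these pseudocounts, 195 when centred, 197 as CPM, 608 at 1.5-fold and 6 at 4-fold. The interferon list had between 60 and 64 genes 2-fold higher under the alternatives of scaling, pseudocount, unit and composition. It had 31 genes past 4-fold, and 1 gene, Ifitm2, was lower at 1.5-fold. No paired analysis was possible because each group has 1 library. Ifi27l2b, with 168 and 149 counts, has the widest interval of the members.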

Other observations

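The genes nearest to a member in log2 ratio, among genes within 2-fold of its level under the control label, were named for likeness over 2 libraries, which is 1 ratio and 1 level. Of 442 genes at the level of Ifi27, none had a lower ratio. The nearest was Thbs4, which encodes the matrix protein thrombospondin-4 (FPKM 28.55 and 89.98, log2 ratio −1.62). It was followed by Igfbp6, an IGF-binding protein (97.3 and 213, −1.12), and Sod3, the extracellular superoxide dismutase (114 and 248, −1.11). For Ifi27l2a the nearest of 3674 genes were Nup50, Kat7 and Crkl, each at 0.47, and for Ifi27l2b the nearest of 3653 were Angel1, Kif9 and Gm10080, each at 0.40, so that their ratios were shared by many genes.

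The human protein IFI27 has been linked to apoptosis and the product of mouse Ifi27l2a to adipogenesis. Of 15 genes of mitochondrial apoptosis, none passed 2-fold on the log2 ratio of (FPKM + 1), and the median was 0.18. Of all genes at FPKM 1 or more in either library, 3.15% passed it upward and 1.06% downward. Without the added 1, Pmaip1 (1.02) and Bcl2l11 (1.28) passed it, and Bcl2l11 is named after its value was seen. On that scale 2546 genes passed 2-fold upward and 852 downward. Pmaip1, which promotes apoptosis, had the largest ratio (0.92), and Bbc3 (−0.33) and Bax (−0.32), which also promote it, had the smallest. Of 12 adipocyte genes, 2 passed 2-fold downward and 0 upward, with a median of −0.21, where 1.06% of the genes at FPKM 1 or more in either library passed it downward. Without the added 1, Cidec, a lipid droplet gene named after its value was seen, also passed it (−1.33, from 63 and 212 counts). It is 1 of the 852 genes 2-fold lower on that scale. The lowest were Cfd, which encodes adipsin (FPKM 15.3 and 39.0, log2 ratio −1.29), and Adipoq, which encodes adiponectin (−1.07). The largest were Pparg (0.29) and Lpl (0.16). All are differences between single libraries, as for the Ifi27 family.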
